A study of Homo sapiens with 6 samples.

Results

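The 10 genes described here are MYD88, LITAF and 8 genes that carry or restrain signals from Toll-like and interleukin receptors: IRAK1, IRAK4, TRAF6, TOLLIP, TIRAP, MAP3K7, TAB1 and TAB2. They were found by symbol among the 56638 gene symbols of the count tables, and all 10 had enough reads to be tested. MYD88 and LITAF were chosen by their fall between control siRNA and RNF6 siRNA libraries, so their difference is described without a test. The other 8, called partners below, were taken by name from the pathway, but with earlier results of these data known. Their p-values are adjusted over all 14685 genes tested and not for that choice. The gene lists below were also chosen with those results known.

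The cells carry the label HT29, an established human colorectal cancer line, at passages 16 to 19 in serum-supplemented RPMI-1640. In both groups they are otherwise unmodified and were transfected with siRNA: 3 libraries come from a nonspecific control siRNA and 3 from an siRNA against RNF6, a RING-type ubiquitin ligase. The protocols describe no added Toll-like receptor ligand or cytokine. The sources used here do not say whether the number in a sample title marks a separate culture or a different siRNA, nor how long after transfection RNA was taken, so p-values here reflect only how far the 6 libraries vary, which may be technical.

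Toll-like receptors recognise microbial molecules, and receptors of the interleukin-1 and interleukin-18 family recognise cytokines. Both groups carry a TIR domain inside the cell, to which the adaptor protein MyD88 binds, for some receptors with the help of TIRAP. MyD88 then assembles the kinases IRAK4 and IRAK1, and these engage the ubiquitin ligase TRAF6. Ubiquitin chains made by TRAF6 recruit TAB1 and TAB2 with the kinase TAK1, the product of MAP3K7, which switches on the IKK complex, NF-kB and stress-activated MAP kinases. TOLLIP binds the IRAK kinases and holds the signal down. LITAF was named as a factor induced by lipopolysaccharide that promotes TNF expression, and its product is also a small protein of late endosomes and lysosomes. In the colonic epithelium this pathway links microbial contact to cytokine output and to repair.

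RNF6 itself was at 54.3, 45.2 and 57.8 CPM (gene reads scaled to a common library total) in the control libraries and at 16.5, 16.2 and 16.9 CPM where RNF6 siRNA was used. Gene reads per library ranged from 6808771 to 11071456. Of 12 colon epithelial markers, EPCAM, CDH1 and the keratin genes KRT8, KRT18 and KRT19 were abundant, whereas VIL1, CDX1, LGALS4, CEACAM5 and GPA33 had at most 5 reads in every library. These 5 colonocyte markers were thus absent or nearly so in the count tables of libraries labelled HT29, and CDX1 had 0 reads throughout. In contrast, CDX2, of the same list, had 96 to 179 reads a library and did not pass the test (adjusted p = 0.957). CDX2 was named after its values were seen. Exons of other genes cover 44.0% of VIL1 and 16.2% of CEACAM5, which can remove reads, and none of CDX1, LGALS4 and GPA33. Of the 7 epithelial markers tested 4 fell and 3 did not pass, 57.1% called against 32.7% of all tested genes, 16.1% lower and 16.6% higher. KRT8, with the most CPM, fell 2.44-fold (adjusted p = 9.37e-06), KRT18 fell 3.07-fold, KRT20 fell 3.04-fold (both chosen after their values were seen) and KRT19 fell 1.51-fold (adjusted p = 0.00189), while EPCAM was at 218 ± 9.91 and 227 ± 15.04 CPM (SD, n = 3). Other annotated exons cover 7.63% of KRT8 and 16.3% of KRT18, and both genes have pseudogene copies, so their counts are uncertain. Of 18 markers of immune, fibroblast and endothelial cells, 14 had too few reads to be tested, CD68, CD3D and PECAM1 were at 0 in all libraries, and the leukocyte marker PTPRC had at most 3 reads. Annotated exons of another gene cover 85.8% of CD68, which can remove its reads from the count. The summed level of the 18 was 56.0 to 73.3 CPM in control and 73.5 to 90.1 CPM in RNF6 siRNA libraries, mostly the collagen gene COL1A1, which rose 1.33-fold (adjusted p = 0.0197). Its adjusted p was 0.0793 on dropping control replicate 3, 0.0690 on dropping RNF6 siRNA replicate 1 and 0.0727 on dropping replicate 3 of that group, within 0.00534 to 0.0969 over the 12 alternative settings. CSF1R, the second of the list, was at 2.50 ± 0.551 and 1.25 ± 0.465 CPM (adjusted p = 0.0332), a call lost with DESeq2 (adjusted p = 0.0735), on dropping control replicate 3 (0.147) and on dropping replicate 2 (0.0583) or 3 (0.162) of the other group, within 0.0149 to 0.162. The part of the keratin and other-cell markers in the results was not tested.

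MYD88, the adaptor, was low in every RNF6 siRNA library. Control replicates 1, 2 and 3 read 25.7, 30.6 and 28.4 CPM, and the RNF6 siRNA replicates, in the same order, 5.61, 4.43 and 6.10 CPM. The groups did not overlap, and the lowest control library stood well above the highest RNF6 siRNA library. In reads these were 187, 273 and 266 against 61, 30 and 68, so counting error is larger in the second group. Mean levels of 28.2 ± 2.42 and 5.38 ± 0.859 CPM (SD, n = 3) put MYD88 5.15-fold lower (log2 fold change −2.37, SE 0.152). Exons of no other annotated gene overlap MYD88. In these bulk libraries, fewer cells that express a gene and less of its RNA per cell cannot be told apart.

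LITAF had the widest gap of the members. Control replicates read 130.8, 129 and 122 CPM, and RNF6 siRNA replicates 16.6, 18.4 and 17.4 CPM. All control libraries lay close together, as did all RNF6 siRNA libraries, and the groups were far apart. With means of 127 ± 4.90 and 17.5 ± 0.907 CPM (SD, n = 3), LITAF was 7.28-fold lower (log2 fold change −2.86, SE 0.109). In reads this was 951 to 1153 per control library against 125 to 194. LITAF shares no exon bases with another annotated gene either.

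**Figure D1:**
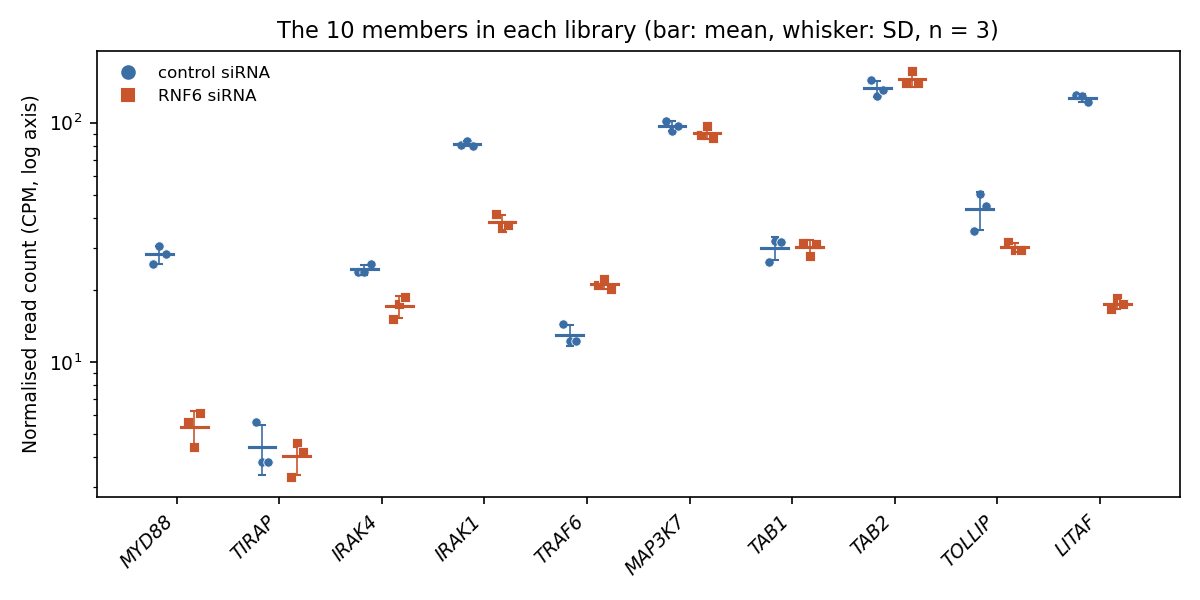
Normalised read count (CPM, log axis) of each of the 10 members in each library, with control siRNA libraries as circles and RNF6 siRNA libraries as squares; bars are means and whiskers SD (n = 3). MYD88 drops from 28.2 to 5.38 CPM and LITAF from 127 to 17.5 CPM, IRAK1 lies lower in every RNF6 siRNA library, and TRAF6 lies higher in every one.

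The 3′ untranslated regions (UTRs) of MYD88 and LITAF share a short word. Every 7-base word was ranked over the 3′ UTRs of 11926 tested genes, members left out, by how far the log2 fold change of genes that hold it departs from that of genes without it after allowing for UTR length and GC content. Of 15922 words, ACAGACA came first, and the second, TACAGAC, is the same word moved by 1 base, so that both lie within TACAGACA. With that allowance the difference was −0.209 (SE 0.0129) for ACAGACA and −0.194 (SE 0.0155) for TACAGAC. The ranking used the size of the ratio of difference to SE. This ratio was −16.2 for ACAGACA, −12.6 for TACAGAC and 8.18 for GGAGAAA, a word without this sequence at rank 6. The word was found in 3 places in the MYD88 3′ UTR, 2 of them within the 8-base form, and once in that of LITAF, within the 8-base form. The 3′ UTRs of the 8 partners did not hold it. The sites follow from GENCODE release 29 transcripts (GRCh38), 5′ to 3′ on the transcript strand, 30 bases each, with the 7-base word in capitals.
MYD88 site at base 265 of 1867, chr3:38141405-38141434, plus strand: gatgccaacttcACAGACAcgtctgcagca
MYD88 site at base 1142, chr3:38142282-38142311, plus strand: acagactcacatACAGACAcacacatatat
MYD88 site at base 1162, chr3:38142302-38142331, plus strand: acacatatatgtACAGACAtgtactctcac
LITAF site at base 614 of 1915, chr16:11549006-11549035, minus strand: ttaacacccagtACAGACAtatccacaagg

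Among the 11926 genes outside the members, 15.5% held the word at least once. Their median log2 fold change was −0.11, against 0.00 for the 10079 genes without it. Of the holders 28.0% were called lower and 14% higher, and of the rest 15.8% and 17.1%. For the 523 genes with the 8-base form the median was −0.15, with 31.2% lower and 11.1% higher. For the 365 genes with 2 copies of the word or more the median was −0.11, with 26.8% lower and 16.2% higher. For the 31 genes with 2 copies of the 8-base form or more it was −0.14, with 35.5% lower and 12.9% higher. These medians are not adjusted for UTR length, whose median was 4850 bases for genes with 2 words or more. They therefore do not compare copy numbers alone. Measured library by library against the control mean, the median of the holders minus that of the rest was −0.17, −0.08 and −0.08 in RNF6 siRNA replicates 1, 2 and 3, so replicate 1 showed the larger shift. Without RNF6 siRNA replicate 1 the difference of medians was −0.07 in place of −0.11, a change of more than 1.5 times. Holders had longer 3′ UTRs, with a median of 3106 bases against 1171. No mature miRNA of the 2545 in the RefSeq table has bases 2 to 8 complementary to the word (UGUCUGU). No source used here gives the sequence of the RNF6 siRNA, the word was found in the same comparison, and its part in the low levels of MYD88 and LITAF was not tested. Whether the siRNA lowered these transcripts directly, apart from RNF6, was not tested either.

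**Figure D2:**
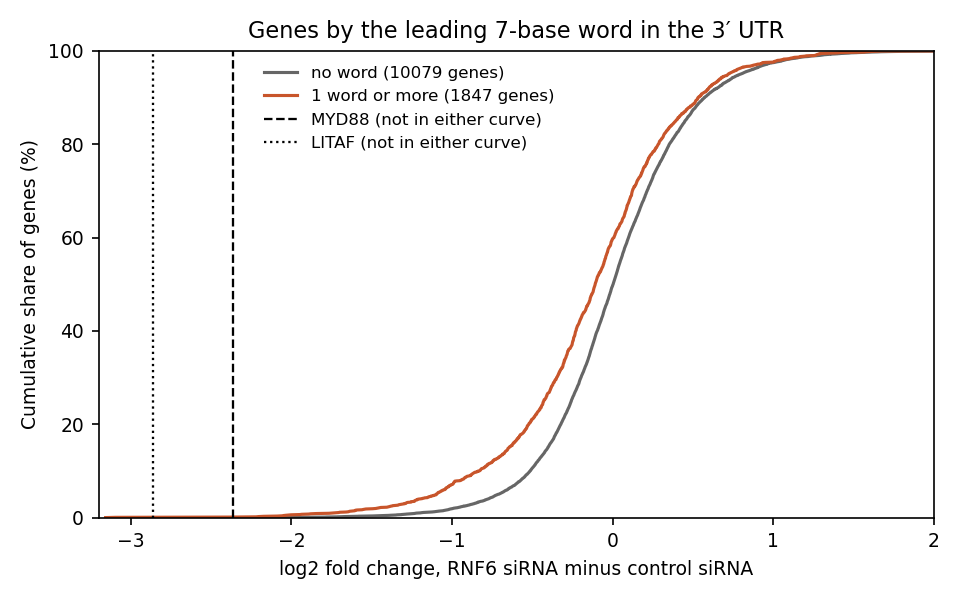
Cumulative share of genes (%) against log2 fold change (RNF6 siRNA minus control siRNA) for genes without the leading 7-base word in their 3′ UTR (10079) and with it (1847), members left out. The curve of the holders lies to the left, with medians of −0.11 and 0.00, and the vertical lines of MYD88 (−2.37) and LITAF (−2.86) lie beyond nearly all genes of both curves.

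The promoter of MYD88 was set beside that of LITAF because both genes were low together. The 250 bases before each RefSeq start (GRCh38.p14) are printed 5′ to 3′ on the gene's strand, with matched motifs in capitals. A gamma-activated site, the element bound by STAT factors (TTCNNNGAA), an interferon-stimulated response element core (GAAANNGAA) and a 9-base NF-kB form (GGGNNTTCC) were searched on both strands.
MYD88 promoter, chr3:38138411-38138660, plus strand: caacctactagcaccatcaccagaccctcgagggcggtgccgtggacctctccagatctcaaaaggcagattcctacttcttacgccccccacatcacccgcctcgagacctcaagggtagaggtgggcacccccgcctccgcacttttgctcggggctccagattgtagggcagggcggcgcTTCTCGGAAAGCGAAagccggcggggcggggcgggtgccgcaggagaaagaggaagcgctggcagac
LITAF promoter, chr16:11587467-11587716, minus strand: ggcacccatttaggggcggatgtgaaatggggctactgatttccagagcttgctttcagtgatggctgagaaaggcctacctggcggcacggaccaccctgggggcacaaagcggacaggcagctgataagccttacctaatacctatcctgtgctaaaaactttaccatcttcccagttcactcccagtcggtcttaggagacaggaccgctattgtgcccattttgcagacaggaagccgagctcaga

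In MYD88 the STAT motif starts 67 bases before the start and the interferon motif 61 bases before it, so that they overlap in a single stretch. LITAF and the other members with an entry held none of the 3 motifs in this window. Only the first listed start of each gene was searched, so any other start was not looked at. TIRAP had no entry, which left 9 members searched. Over all 27305 promoters of this length, 6.78% held the STAT motif, 7.06% the interferon motif and 5.81% the NF-kB form. A match is a match of letters and not a measured binding site.

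Among the 8 partners 3 fell, 1 rose and 4 did not pass the test, against a background of 32.7% of all tested genes called, 16.1% lower and 16.6% higher. These shares stand for 2442 genes higher and 2364 lower. Dropping control replicate 3 left 1514 higher, and dropping RNF6 siRNA replicate 3 left 1529 higher and 1478 lower. The groups' libraries did not overlap for 4 of the 8 partners, and for 44.2% of all genes. The median log2 fold change of the partners was −0.12 and that of all genes 0.01.

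IRAK1, the kinase that leaves the receptor complex to engage TRAF6, fell most among the partners. Control libraries read 81.0, 83.7 and 80.0 CPM and RNF6 siRNA libraries 41.7, 36.3 and 37.5 CPM. The control libraries were close together, and every RNF6 siRNA library lay far below them. The means were 81.6 ± 1.92 and 38.5 ± 2.81 CPM (SD, n = 3), and IRAK1 fell 2.12-fold (log2 fold change −1.08 with SE 0.104, adjusted p = 1.17e-05). IRAK4, the kinase that starts the cascade by phosphorylating IRAK1, fell 1.43-fold. It had 23.7, 23.7 and 25.7 CPM in control and 15.2, 17.4 and 18.7 CPM in RNF6 siRNA libraries (log2 fold change −0.51, SE 0.127, adjusted p = 0.00823). These groups did not overlap either, although the gap was small.

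TRAF6, the ubiquitin ligase below the IRAK kinases, was the only member that rose. Control libraries read 14.4, 12.2 and 12.3 CPM and RNF6 siRNA libraries 21.1, 22.3 and 20.3 CPM. Each RNF6 siRNA library lay above each control library. The means were 12.97 ± 1.28 and 21.2 ± 1.02 CPM (SD, n = 3), 1.64-fold higher (log2 fold change 0.71, SE 0.130, adjusted p = 0.00124). The calls of IRAK1, IRAK4 and TRAF6 held under each of the 12 alternative settings, with an adjusted p of at most 0.00143, 0.0463 and 0.0148. Set against MYD88 in the same library, TRAF6 had 0.562, 0.399 and 0.432 reads per MYD88 read under control siRNA and 3.75, 5.03 and 3.32 under RNF6 siRNA, not corrected for transcript length. MYD88 was chosen by its fall, which by itself raises this ratio, so the ratio adds no support to the rise of TRAF6.

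TOLLIP, the inhibitor, fell 1.44-fold. It had 35.2, 50.5 and 44.7 CPM in control and 31.7, 29.4 and 29.3 CPM in RNF6 siRNA libraries. Control replicate 1 lay near the RNF6 siRNA libraries and the other two controls above them, which gives a wide control spread of 7.70 CPM around a mean of 43.5 (log2 fold change −0.53, SE 0.134, adjusted p = 0.00924).

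The TAK1 complex did not pass the test in any of its genes. MAP3K7, which encodes the kinase, had 101, 92.7 and 97.1 CPM in control and 89.1, 96.4 and 86.0 CPM in RNF6 siRNA libraries (log2 fold change −0.10, SE 0.0992, adjusted p = 0.464). TAB1, which activates TAK1, had 30.03 ± 3.25 and 30.1 ± 2.18 CPM (SD, n = 3), with a log2 fold change of 0.01 (SE 0.122, adjusted p = 0.977). TAB2, the subunit that binds ubiquitin chains, had 139 ± 10.6 and 152 ± 10.6 CPM (SD, n = 3), with a log2 fold change of 0.13 (SE 0.100, adjusted p = 0.361). In all 3 the libraries of the groups overlapped, and with these standard errors small changes in either direction were not detectable. TIRAP, the bridging adaptor, was the scarcest member, with 31 to 47 reads in each library and 4.43 ± 1.05 and 4.03 ± 0.652 CPM (SD, n = 3, log2 fold change −0.13, SE 0.225, adjusted p = 0.686). Other annotated exons cover 22.5% of TIRAP, so its level is uncertain.

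**Figure D3:**
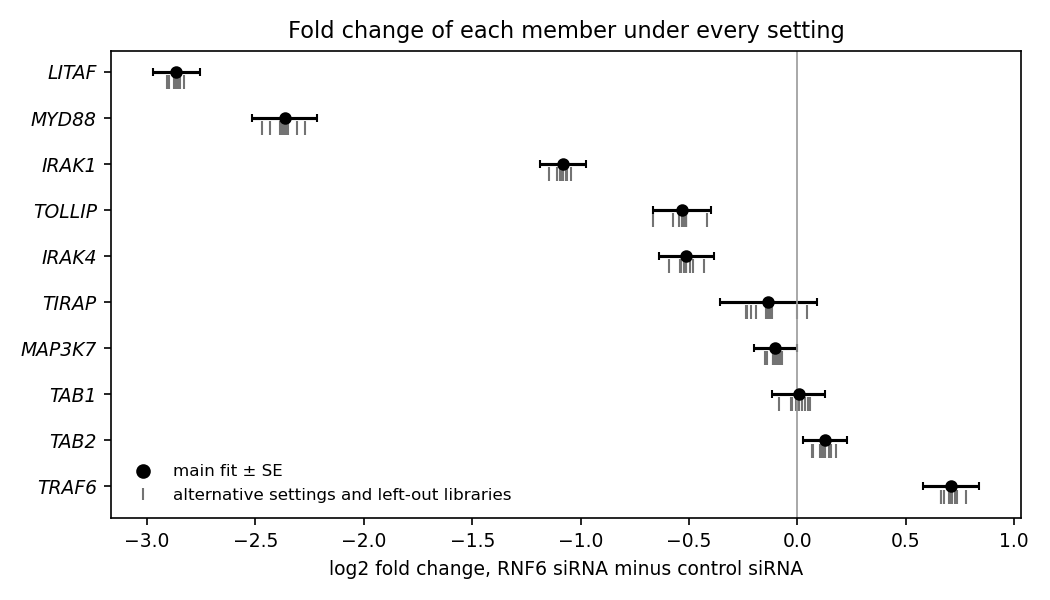
Log2 fold change (RNF6 siRNA minus control siRNA) of each member with its standard error, and ticks for the 12 alternative settings, which include leaving out each library. LITAF (−2.86), MYD88 (−2.37) and IRAK1 (−1.08) keep their distance from 0 in every setting, while the ticks of TIRAP and TAB1 fall on both sides of it.

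Levels of different genes were compared per kilobase of annotated exon. In control libraries the order was LITAF (25.1 ± 0.968 CPM per kb), TAB2 (23.2 ± 1.77), IRAK1 (20.4 ± 0.479), MAP3K7 (13.4 ± 0.604), TOLLIP (7.26 ± 1.29), MYD88 (7.07 ± 0.606), TAB1 (6.74 ± 0.730), IRAK4 (4.33 ± 0.206), TRAF6 (2.66 ± 0.262) and TIRAP (1.23 ± 0.292). TOLLIP, MYD88 and TAB1 lay within each other's SD, and the difference of LITAF and TAB2 was smaller than the sum of their SDs. In RNF6 siRNA libraries TAB2 led (25.3 ± 1.76 CPM per kb), followed by MAP3K7 (12.5 ± 0.737), IRAK1 (9.62 ± 0.702), TAB1 (6.76 ± 0.490), TOLLIP (5.04 ± 0.229), TRAF6 (4.35 ± 0.209), LITAF (3.46 ± 0.179), IRAK4 (3.04 ± 0.321), MYD88 (1.35 ± 0.215) and TIRAP (1.12 ± 0.182). LITAF thus moved from the first to the seventh place, MYD88 from the sixth to the ninth, and TRAF6 passed both. The differences of LITAF from IRAK4 and of MYD88 from TIRAP in these libraries were smaller than the sum of their SDs. Exon lengths come from another genome build than the counts and hold every annotated exon, so these levels are approximate.

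Genes whose level followed that of MYD88 and LITAF most closely over the 6 libraries were sought among the 11727 tested genes whose mean level reached 5 CPM. For MYD88 they were PITRM1 (Pearson r = 0.9995), a mitochondrial peptidase gene, COBL (0.9989), an actin nucleator gene, and SUSD2 (0.9984). For LITAF they were SLC17A5 (0.9995), which encodes the lysosomal sialic acid transporter sialin, CDC42 (0.9993) and PHAX (0.9990), an adaptor gene for nuclear export of small RNAs. PITRM1 was 2.09-fold, COBL 2.62-fold, SUSD2 3.31-fold, SLC17A5 2.20-fold, CDC42 4.61-fold and PHAX 1.76-fold lower. CDC42 has near-identical pseudogene copies, so its counts are uncertain. CDC42 and PHAX hold the leading 3′ UTR word once each, and the other four do not. Any gene that separates the groups scores high on this measure, and r was at least 0.95 for 790 genes with MYD88 and for 867 with LITAF.

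Most Toll-like receptor genes had few or no reads. Of 22 receptor and co-receptor genes 13 had too few reads to be tested, among them TLR2, TLR4, TLR7 and TLR8 with 0 to 2 reads a library and the lipopolysaccharide co-receptor gene LY96 with 0 to 4. A library with 0 reads allows up to 3 reads, which is 0.269 to 0.443 CPM here and covers counting error only. CD14, the other co-receptor of lipopolysaccharide and also a monocyte marker, had 3, 14 and 16 reads in control and 3, 0 and 3 in RNF6 siRNA libraries, too few to be tested. Of the 9 tested, 2 rose, 1 fell and 6 did not pass, 33.3% against the background of 32.7%.

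The receptor genes that rose were both chains of the interleukin-1 receptor. IL1R1, the ligand-binding chain, had 14.6, 14.3 and 18.03 CPM in control and 26.2, 27.2 and 28.96 CPM in RNF6 siRNA libraries, and no libraries overlapped. It rose 1.75-fold (log2 fold change 0.81, SE 0.131, adjusted p = 5.43e-04), a call that held in all 12 alternatives. Its accessory chain IL1RAP rose 1.37-fold, with 30.5, 22.7 and 25.3 against 32.6, 39.3 and 36.0 CPM (adjusted p = 0.0186). The IL1RAP call was lost on dropping control replicate 2 (adjusted p = 0.0606) or 3 (0.0924), and on dropping RNF6 siRNA replicate 2 (0.0744) or 3 (0.0728), within 0.00110 to 0.0924 over all alternatives. The IL1RL1 and IL1RL2 receptor genes had at most 1 read.

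TLR3, the endosomal sensor of double-stranded RNA, fell 1.67-fold, from 3.36 ± 0.822 to 1.97 ± 0.0798 CPM (SD, n = 3, adjusted p = 0.0417). That call was lost in 9 of the 12 alternatives, among them DESeq2 (adjusted p = 0.114), dropping control replicate 1 (0.138) or 2 (0.0604), and dropping RNF6 siRNA replicate 1 (0.0939), 2 (0.0922) or 3 (0.101), within 0.0417 to 0.138. SIGIRR, a decoy-like receptor that restrains the pathway, had 28.3, 43.4 and 39.8 against 29.6, 28.5 and 27.5 CPM (adjusted p = 0.0589). Dropping control replicate 1 gave a call (adjusted p = 6.66e-04), and so did testing every gene with no count filter (0.0221), within 6.66e-04 to 0.188. TLR1 (2.35 ± 0.674 and 1.61 ± 0.711 CPM), TLR5, the flagellin receptor (4.87 ± 1.26 and 5.11 ± 0.421), TLR6 (4.48 ± 0.602 and 4.23 ± 1.15), IL18R1 (5.68 ± 1.20 and 6.02 ± 1.07) and UNC93B1, the chaperone of endosomal receptors (55.9 ± 8.79 and 54.6 ± 11.5), did not pass (SD, n = 3, adjusted p of 0.233 for TLR1 and of 0.747 to 0.903 for the others). On dropping replicate 2 or 3 of either group, 1 receptor gene rose. The number that fell was 0 on dropping control replicate 2, 3 on dropping control replicate 1 and 2 on dropping RNF6 siRNA replicate 1.

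**Figure D4:**
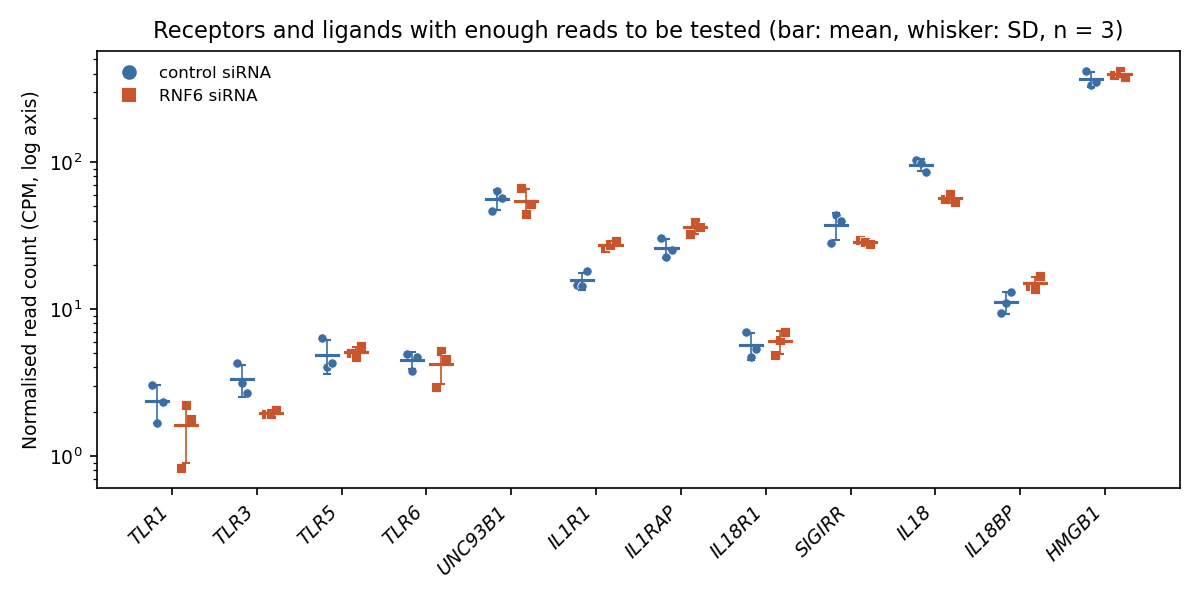
Normalised read count (CPM, log axis) of the 9 receptor or co-receptor genes and 3 ligand genes with enough reads to be tested, in control siRNA (circles) and RNF6 siRNA (squares) libraries, with mean and SD (n = 3). IL1R1 lies higher and IL18 lower in every RNF6 siRNA library, and the Toll-like receptor genes all lie below 7 CPM.

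Of 13 ligand genes 10 were not tested: IL1B, IL33 and CASP1, which encodes the protease that matures interleukin-1 beta, had at most 1 read a library, and IL36A and IL36B had 0. Among the 3 tested, IL18 fell 1.69-fold, from 95.6 ± 9.12 to 56.7 ± 3.84 CPM (SD, n = 3, log2 fold change −0.75, SE 0.110, adjusted p = 2.57e-04). Its libraries read 103, 98.7 and 85.3 against 56.2, 60.8 and 53.2 CPM, without overlap. IL18BP, which neutralises interleukin-18, had 11.1 ± 1.89 and 14.9 ± 1.61 CPM (adjusted p = 0.0544) and was called higher with upper-quartile scaling (adjusted p = 0.0469) and on dropping control replicate 3 (0.0483), within 0.0469 to 0.229. HMGB1, an abundant nuclear protein that acts as a danger signal once released, had 369 ± 45.01 and 396 ± 18.8 CPM (SD, n = 3, adjusted p = 0.479). On dropping control replicate 3, or any of the RNF6 siRNA libraries, a second ligand gene was called lower. IL1RN, the interleukin-1 receptor antagonist gene, had the most reads of the untested ligands, with 9, 19 and 8 reads in control and 1, 1 and 4 in RNF6 siRNA libraries.

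Of 27 tested genes among the other adaptors, kinases and ubiquitin enzymes, 11 fell, 1 rose and 15 did not pass, 44.4% called. The background was 32.7% called, 16.1% lower and 16.6% higher. The median log2 fold change of this list was −0.26. CHUK, the IKK alpha kinase, fell 1.72-fold, from 144 ± 17.9 to 83.7 ± 5.84 CPM (SD, n = 3, adjusted p = 2.42e-04). RIPK1, a kinase scaffold shared with TNF signalling, fell 1.56-fold from 58.2 ± 1.13 to 37.2 ± 3.32 CPM (adjusted p = 7.17e-04). TICAM1, the adaptor TRIF that serves TLR3 in place of MyD88, fell 1.61-fold, with 28.2, 30.2 and 28.3 against 20.3, 16.1 and 17.1 CPM (adjusted p = 0.00128). MAPK9, which encodes the stress kinase JNK2, fell 1.48-fold (adjusted p = 0.00101). The single riser was TRAF3, which restrains NF-kB and serves the interferon arm. It rose 1.67-fold, with 40.6, 40.0 and 40.2 against 66.9, 65.1 and 69.9 CPM (adjusted p = 1.43e-04), without overlap. UBE2N, the ubiquitin-conjugating partner of TRAF6 and the gene of the list with the most CPM over all libraries, not corrected for length, had 162 ± 2.11 and 147 ± 3.22 CPM (adjusted p = 0.246), with 39.5% of its exon bases shared with other genes. IRAK2, RELA and IKBKB, chosen after their values were seen, fell 1.55-fold (adjusted p = 0.0132), 1.37-fold (0.00438) and 1.28-fold (0.0206). The IKK subunit gene IKBKG and the NF-kB subunit gene NFKB1 did not pass (adjusted p = 0.728 and 0.0942). Of this list 7 genes fell on dropping control replicate 3, 3 rose on dropping control replicate 1, and 2 rose on dropping RNF6 siRNA replicate 1 or 2.

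Of 19 tested brakes on the pathway 6 fell, 3 rose and 10 did not pass, with a median log2 fold change of −0.18. This was 47.4% called against 32.7% of all genes, of which 16.1% were lower and 16.6% higher. TANK, a TRAF-binding scaffold that limits TRAF6 and serves the kinase TBK1, fell 2.56-fold. It had 93.7, 74.98 and 78.8 CPM in control and 31.6, 38.5 and 27.2 CPM in RNF6 siRNA libraries (log2 fold change −1.36, SE 0.139, adjusted p = 1.87e-05). Its 3′ UTR of 831 bases holds the leading word once, not within the 8-base form. Among the other tested brakes, OTUD7B, FAM105B and SARM1 also hold the word and did not pass the test. CYLD, a deubiquitinase that removes the chains TRAF6 builds, fell 1.42-fold from 41.6 ± 2.75 to 29.5 ± 2.92 CPM (adjusted p = 0.00556). NFKBIB, an NF-kB inhibitor gene, rose 1.84-fold from 22.1 ± 4.53 to 40.5 ± 4.89 CPM (adjusted p = 8.30e-04), and TNIP1, which works with the deubiquitinase A20, rose 1.48-fold (adjusted p = 0.00314). TRAF4 rose 1.39-fold (adjusted p = 0.0119), a call lost on dropping replicate 3 of the control group (adjusted p = 0.0682) or of the RNF6 siRNA group (0.0549), within 0.00118 to 0.0736. Other exons cover 16.9% of TRAF4. TAX1BP1, with the most CPM of the list, had 152 ± 14.3 and 146 ± 10.996 CPM (adjusted p = 0.712). Among the brakes 2 fell on dropping control replicate 3, 2 on dropping RNF6 siRNA replicate 2, and 3 on dropping RNF6 siRNA replicate 3.

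Genes that NF-kB is known to switch on covered a wide range of levels. Of 24 genes 10 had too few reads to be tested, among them IL6 with 0 reads in every library and TNF, whose expression LITAF is known to promote, with 0 to 3. Of the 14 tested, 7 fell, 1 rose and 6 did not pass, with a median log2 fold change of −0.47. This was 57.1% called against 32.7% of all genes, of which 16.1% were lower and 16.6% higher. ICAM1, an adhesion receptor for leukocytes, fell 3.04-fold, with 7.02, 6.04 and 6.19 against 2.48, 2.36 and 1.52 CPM (log2 fold change −1.61, SE 0.224, adjusted p = 1.79e-04), although other exons cover 23.6% of it. PLAUR, the urokinase receptor gene, fell 1.60-fold from 41.8 ± 2.83 to 26.2 ± 2.47 CPM (adjusted p = 8.94e-04). NFKBIZ fell 1.63-fold (adjusted p = 0.00994), a call lost on dropping control replicate 3 (0.0675, within 5.09e-04 to 0.0675), and BIRC3 fell 1.59-fold (adjusted p = 0.0103), a call lost on dropping RNF6 siRNA replicate 3 (0.0677, within 1.94e-04 to 0.0677). SOD2, a mitochondrial antioxidant enzyme gene, rose 1.23-fold (adjusted p = 0.0248). This call was lost with no count filter (adjusted p = 0.0854), on dropping control replicate 2 (0.0559) or 3 (0.108), and on dropping RNF6 siRNA replicate 1 (0.0742), 2 (0.0582) or 3 (0.0811), within 0.0196 to 0.129. IER3, with the most CPM of the list, fell 1.23-fold from 305 ± 21.4 to 248 ± 20.3 CPM (adjusted p = 0.0335), a call lost on dropping control replicate 2 (0.0894) or 3 (0.0617), or RNF6 siRNA replicate 2 (0.0703) or 3 (0.157), within 0.0179 to 0.157. Other exons cover 26.5% of IER3. On dropping replicate 3 of either group, 3 genes of this list fell.

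Few of LITAF's relatives and partners passed the test. The LITAF protein recruits NEDD4-family ubiquitin ligases and components of the endosomal sorting machinery. Of 14 tested genes 1 rose, 1 fell and 12 did not pass, 14.3% called against the background of 32.7%, with a median log2 fold change of −0.07. WWP2, a NEDD4-family ligase gene, rose 1.76-fold, with 35.6, 37.5 and 36.6 against 67.7, 55.9 and 69.3 CPM (adjusted p = 1.79e-04). NEDD4L fell 1.24-fold (adjusted p = 0.0337), a call lost on dropping control replicate 1 (0.0616) or 3 (0.0890), or RNF6 siRNA replicate 2 (0.0843) or 3 (0.139), within 0.0256 to 0.139. A second gene of this list was called higher on dropping replicate 1 of either group, and a second one lower on dropping control replicate 2. PDCD6IP, with the most CPM of the list, had 214 ± 20.1 and 225 ± 14.8 CPM (SD, n = 3, adjusted p = 0.617). CDIP1, which encodes a protein with the same LITAF domain, had 22.1 ± 3.74 and 18.5 ± 2.53 CPM (adjusted p = 0.220).

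**Figure D5:**
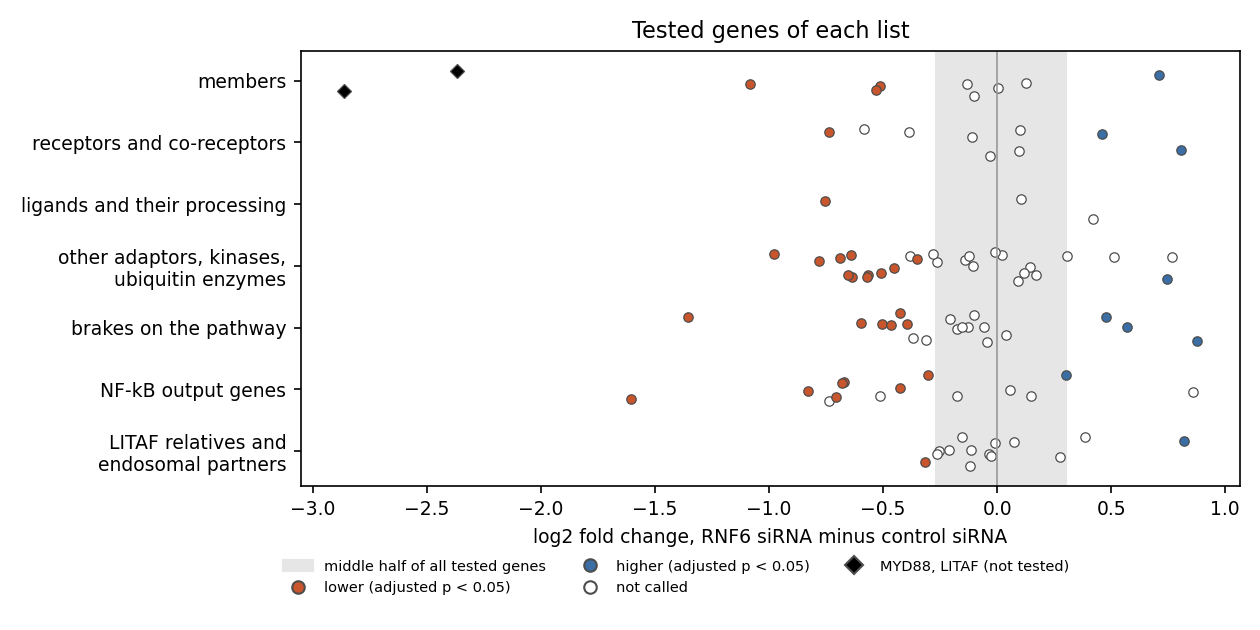
Log2 fold change (RNF6 siRNA minus control siRNA) of every tested gene of the members and of the 6 pathway lists; filled circles passed an adjusted p of 0.05, open circles did not, diamonds are MYD88 and LITAF, and the grey band is the middle 50% of all tested genes. MYD88 and LITAF lie below all genes of the lists, the lowest of which is ICAM1 (−1.61).

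Counted once each, 83 genes of the 6 lists were tested, of which 26 fell and 8 rose, 41.0% called, with a median log2 fold change of −0.14. Over all genes 32.7% were called, 16.1% lower and 16.6% higher, and the median was 0.01. The leading 3′ UTR word was held by 13 of these 83, of which 4 fell and 1 rose, and of the 70 without it 22 fell and 7 rose. The holders that fell were CHUK, IKBKB, NEDD4L and TANK, chosen after their values were seen, and the one that rose was IL1R1. UBE2N, with 3 copies of the word in a 3′ UTR of 4349 bases, did not pass the test. Its libraries were nevertheless lower under RNF6 siRNA, without overlap between the groups. It was picked here for its copies after its values were seen.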

How the data were processed

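RNA sequencing of 6 HT29-labelled libraries, 3 per siRNA group, was analysed. The authors deposited whole-number read counts per gene symbol, not normalised. The submitters' processing notes name TopHat2 2.0.11, HTSeq and hg19 (GRCh37). Strand setting and annotation release were not given in the sources used here, so overlapping genes may share or lose reads. Rows that name no gene held 27.3% to 29.4% of listed reads and were left out.

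Counts were fitted in R 4.3.3 with edgeR 4.0.16: filterByExpr with a minimum count of 10, TMM factors of 0.985 to 1.02, a robust quasi-likelihood model with group as its only term, and two-sided Benjamini-Hochberg adjusted p-values over all 14685 genes, called below 0.05. Every adjusted p without a named tool comes from that test. It was also run on simulated counts with far fewer changed genes than were called here. That run therefore does not measure its error rate in these data. CPM values use TMM-scaled library sizes. A positive log2 fold change means a higher level under RNF6 siRNA. Alternatives were RLE and upper-quartile factors, no filter, DESeq2 1.42.0, limma-voom (limma 3.58.1), a replicate block and leaving out each library.

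The members and lists were chosen with earlier results of these data known. Named genes are the members, RNF6, tested receptors, and from each other list the gene of highest mean CPM and up to 5 called genes of smallest adjusted p. The marker lists give their 2 genes of highest mean CPM. The likeness to MYD88 and LITAF names 3 genes each. The 3′ UTR word search was added after the data were seen. It used the longest 3′ UTR per gene of at least 50 bases in GENCODE 29 and words in at least 100 genes, and gives no p. Symbols were matched for 119 pathway genes, and LITAFD had no row.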

Additional observations from a re-analysis of the deposited data

How the results depend on the processing

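Of the members, IRAK1, IRAK4 and TRAF6 kept their call under all 12 alternatives, and TIRAP, MAP3K7, TAB1 and TAB2 were called under none. Leaving out each library moved the log2 fold change of MYD88 between −2.47 and −2.27 and that of LITAF between −2.91 and −2.83. Same-numbered libraries did not deviate together (r = −0.67, −0.44 and 0.10 for numbers 1, 2 and 3), so the replicate block pairs numbers only. With the replicate block 1421 genes were higher and 1321 lower, the TOLLIP call ended (log2 fold change −0.51, adjusted p = 0.0553), and the counts were 1 higher and 0 lower for receptors, 2 lower for brakes, 0 higher and 4 lower for NF-kB output genes and 0 lower for LITAF partners. Without the low-count filter 3 receptors and 2 ligands were lower, 2 adaptor-list genes and 2 LITAF partners higher and 0 output genes higher. Upper-quartile factors gave 1 ligand, 3 adaptor-list genes and 2 LITAF partners higher. DESeq2 called 0 receptors lower, and limma-voom 0 receptors lower and 2 adaptor-list genes higher. Over the left-out libraries, 1514 to 2910 genes were higher and 1478 to 2967 lower. The corresponding ranges were 1 to 2 higher and 0 to 3 lower for receptors, 0 to 1 and 1 to 2 for ligands, 1 to 3 and 7 to 12 for the adaptor list, 2 to 4 and 2 to 7 for brakes, 0 to 1 and 3 to 6 for output genes, and 1 to 2 and 0 to 2 for LITAF partners. Fits with a left-out library also have fewer libraries, and the cause of these changes was not tested. The difference in median between genes with and without the leading word was −0.14 to −0.07 over the left-out libraries. Depth limits TIRAP, the Toll-like receptors and most ligands.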
